A study of Homo sapiens with 6 samples.

Results

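The 38 genes described here encode nuclear factors of mitochondrial gene expression: 16 mitochondrial aminoacyl-tRNA synthetases, 13 translation factors, 6 factors of RNA stability and processing, and 3 factors grouped under transcription. They were chosen by gene symbol, and all 38 were found among the 17631 genes with a value. RNA was sequenced from cultured MDA-MB-231, a human cell line of triple-negative breast cancer. A group of 3 libraries came from cells given vehicle, whose composition the labels do not state, and a group of 3 from cells given 30 µM PDBAG1, a peptide, for 24 h. The labels name no genetic change in either group and also carry a tissue name for what the protocols describe as cultured cells. The comparison asks how the RNA of these genes stood in peptide-treated cells.

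Mitochondria hold a small circular DNA that encodes a few subunits of the respiratory chain together with the rRNAs and tRNAs needed to make them. Every protein that copies, transcribes, processes or translates that genome is encoded in the nucleus and imported. The tRNA synthetases load each mitochondrial tRNA with its amino acid, the initiation, elongation and release factors drive the mitochondrial ribosome, and LRPPRC with SLIRP keeps the mRNAs stable. PDBAG1 was studied as a binder of C1QBP, a mitochondrial matrix protein linked to mitochondrial translation. C1QBP itself stood at 523, 512 and 527 TPM in the vehicle libraries and at 428, 405 and 421 TPM in the PDBAG1 libraries, replicates 1 to 3 in order here and throughout. The groups did not overlap, and its log2 fold change was -0.32 ± 0.04 (SE, limma with Benjamini-Hochberg adjustment, adjusted p = 1.39e-05). The study reported that the peptide lowered this protein through ubiquitin-dependent degradation and left the transcript unaffected. The study quantified this mRNA by qPCR, whereas the values given here are relative levels from sequencing. The fall in TPM was 19.8% of the vehicle mean and did not reach a 1.5-fold change. It stands beside the report of an unaffected transcript, but the assays are unlike. Whether the results disagree was not tested.

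Values are TPM, a unit that is scaled by transcript length and sums to the same total in each library. TPM keeps no record of depth, so the depth of each library and the counting error are unknown. In all, 12582 genes reached a TPM of 1 in at least 3 libraries, among them all 38, and these were tested with limma on log2(TPM + 1). A gene was called where its p, adjusted over all genes tested by the Benjamini-Hochberg method, was under 0.05. On this scale the change of a gene with low TPM is understated, and the labels do not say whether the libraries came from separate cultures, so p-values measure the spread between these libraries. In bulk RNA, fewer cells expressing a gene and less RNA per cell cannot be told apart.

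The libraries carried markers of the line. VIM ranged from 4174 to 5942 TPM, CD44 from 313 to 499, KRT18 from 439 to 527, KRT8 from 571 to 692 and EGFR from 66.3 to 82.5. Of the receptor genes by which such tumours are classed, PGR was at 0 to 0.06 TPM and ESR1 at 1.96 to 3.38, while ERBB2 was at 23.6 to 25.4. Of 8 stromal and immune markers measured, CD68 was at 250.7 to 329 TPM, PECAM1 reached 9.15, COL1A1 reached 4.92 and the other 5 (PTPRC, VWF, COL3A1, ADIPOQ and PLIN1) stayed at or below 1.41. Their summed level was 260 to 273 TPM with vehicle and 321 to 343 TPM with PDBAG1, and CD68 made up most of it. The part of this sum in the results was not tested. CD3E was not analysed here. Over all genes tested, the SD of the log2 difference between a pair of libraries was 0.14 to 0.18 within a group and 0.28 to 0.30 between groups. Over the 38 genes it was 0.08 to 0.11 within and 0.16 to 0.17 between.

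Promoter windows were searched for the letters of a few known motifs. RefSeq (GRCh38.p14) gave a window from 250 bases upstream to 50 bases downstream of the start for 35 of the 38 genes, and AARS2, VARS2 and MTFMT had no entry. The CARS2 window lay inside the gene as annotated by GENCODE v44, and the MTRF1 window lay well upstream of it. For these genes the window is not at the GENCODE start. NRF1 and the ETS-family protein GABP are known activators of nuclear genes for mitochondrial proteins. The NRF1 letters (GCGCA, any base, GCGC), read on both strands, occurred in 5 of the 35 windows (14.3%), against 11.8% of the 10120 windows of genes tested and 5.78% of all 35116 windows. The ETS letters CCGGAAGT occurred in 9 of 35 (25.7%), against 9.09% of genes tested and 4.14% of all windows. The YY1 letters AAGATGGC occurred in 5 of 35 (14.3%), against 5.44% and 2.89%. The core of the hypoxia response element, ACGTG, occurred in 8 of 35 (22.9%, CARS2 among them), against 26.6% and 21.4%. ATF4 letters, TGATGNAA, occurred in 1 of 35 (2.86%, in YARS2), against 1.67% and 3.62%, whereas 6 of 14 windows of cytosolic tRNA synthetases (42.9%) held them. A match is a description of the letters and not of binding, and none of these shares was tested.

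The upstream bases of 4 genes are shown because the same NRF1 letters precede a gene that fell (MARS2), a gene that rose (TFB1M) and a gene that was not called (POLRMT), and because ELAC2, which fell, carries the ETS letters. Sequences are RefSeq, GRCh38.p14, 5′ to 3′ on the strand of the gene, without annotated exon bases, and capitals mark NRF1 or ETS letters on either strand:
MARS2 (chr2:197705119-197705368, plus strand): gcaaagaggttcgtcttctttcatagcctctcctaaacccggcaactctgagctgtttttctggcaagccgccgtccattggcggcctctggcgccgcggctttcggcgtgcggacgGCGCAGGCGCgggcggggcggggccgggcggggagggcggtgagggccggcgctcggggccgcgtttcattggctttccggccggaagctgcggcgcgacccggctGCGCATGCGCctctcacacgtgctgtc
TFB1M (chr6:155314494-155314734, minus strand): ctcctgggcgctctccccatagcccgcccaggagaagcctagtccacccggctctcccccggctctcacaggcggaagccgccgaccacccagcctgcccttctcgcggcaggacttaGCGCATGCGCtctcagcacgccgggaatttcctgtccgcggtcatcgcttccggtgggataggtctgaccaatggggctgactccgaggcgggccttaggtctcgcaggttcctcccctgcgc
POLRMT (chr19:633538-633787, minus strand): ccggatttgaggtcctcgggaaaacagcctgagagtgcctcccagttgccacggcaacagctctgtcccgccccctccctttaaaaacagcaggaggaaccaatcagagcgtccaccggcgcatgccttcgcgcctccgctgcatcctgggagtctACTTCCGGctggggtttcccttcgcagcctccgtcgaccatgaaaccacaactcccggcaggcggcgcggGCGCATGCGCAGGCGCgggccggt
ELAC2 (chr17:13018066-13018277, minus strand): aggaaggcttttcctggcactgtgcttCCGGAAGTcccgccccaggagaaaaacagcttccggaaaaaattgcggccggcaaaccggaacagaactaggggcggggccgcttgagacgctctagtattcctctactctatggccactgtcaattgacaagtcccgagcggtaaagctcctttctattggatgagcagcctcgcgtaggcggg
In MARS2 the NRF1 letters began 133 and 27 bases before the RefSeq start. In TFB1M they began 132 bases before it, and in POLRMT 24 and 18 bases before it, where the matches overlap, with ETS letters 94 bases before it. In ELAC2 the ETS letters began 223 bases before the start. NRF1 letters also stood in IARS2 and PARS2. ETS letters also stood in EARS2, HARS2, PARS2, TUFM, GFM1, GFM2 and MTRF1L, and YY1 letters in SARS2, WARS2, YARS2, QRSL1 and SLIRP.

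Of the 38 genes, 8 were lower with PDBAG1 (21.1%) and 2 were higher (5.26%), against a background of 15.9% lower and 21.7% higher over the 12582 genes tested, or 37.6% in either direction. The 8 were MARS2, NARS2, TSFM, TACO1, QRSL1, SLIRP, ELAC2 and PNPT1, and the 2 were MTIF3 and TFB1M. In this main fit the share lower was thus near the background, and the share higher was below it. At an unadjusted limma p under 0.05, 15 of the 38 were lower and 3 higher, where 19.7% of all genes tested were lower and 26.5% higher. The counts depended on scaling, and so did those of all genes. Median-of-ratios scaling gave 17 lower and 1 higher, with 21.8% of all genes lower and 19.5% higher, and it moved the median log2 fold change of all genes from 0.03 to -0.0073. Quantile normalization gave 16 lower and 2 higher, with 21.8% of all genes lower and 19.1% higher, and moved that median to -0.02. At the unadjusted p and under both scalings, the share of the 38 that was lower was thus above that of all genes. The share higher was below it in each, and none of these differences was tested.

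The shifts were small. None of the 38 reached a 1.5-fold change, the limit the study used, whatever its p. Of all genes tested, 3.34% were both called and past this limit. The log2 fold changes ran from -0.37 (PNPT1) to 0.29 (TFB1M), and all 38 95% intervals lay within 0.58 of 0, which is 1.5-fold. Negative values were found for 27 genes (71.1%) and positive values for 11, while 44.1% of all genes tested were negative. The median was -0.08 beside 0.03 over all genes. In 15 of the 38 (39.5%) every PDBAG1 library lay below every vehicle library, against 20.2% of genes tested, and in 4 (10.5%) every PDBAG1 library lay above, against 27.2%.

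**Figure D1:**
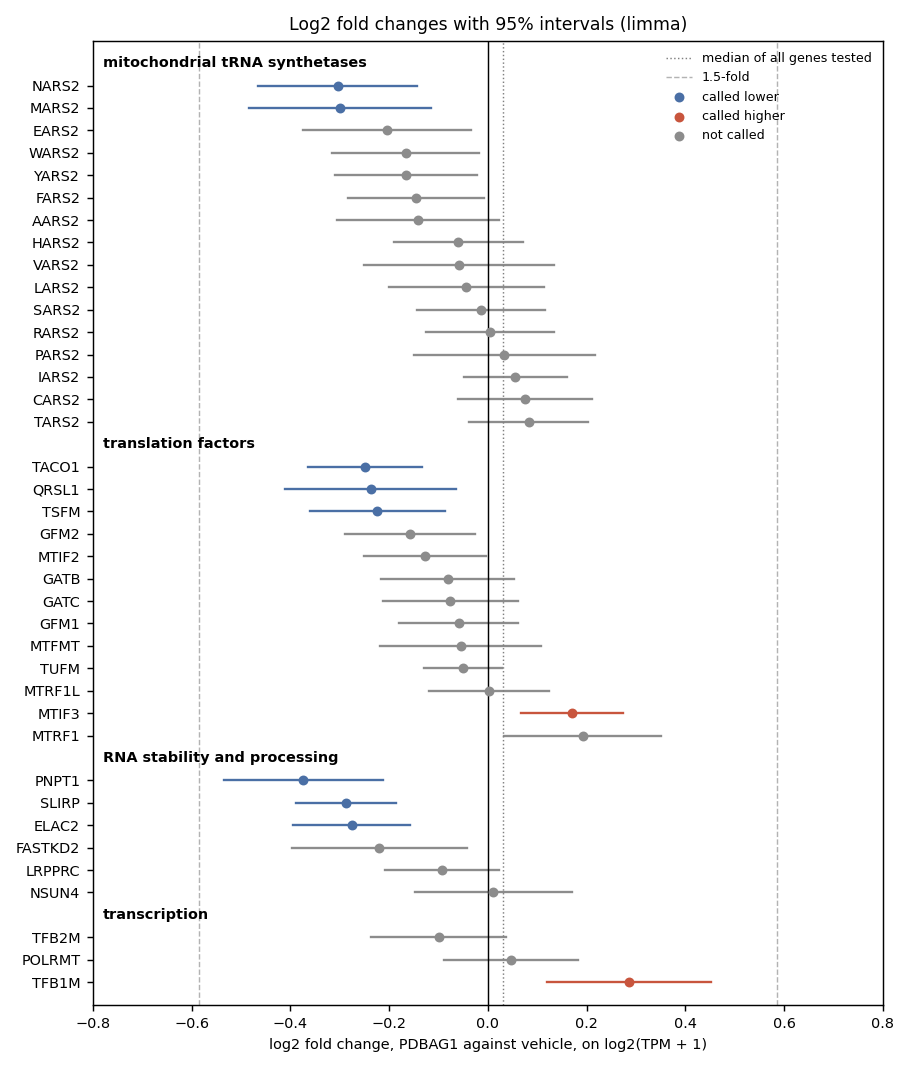
Log2 fold change of each of the 38 genes, PDBAG1 against vehicle on log2(TPM + 1), with its 95% interval from limma, grouped by role. The 8 genes called lower and the 2 called higher are coloured, the dotted line is the median of all genes tested, and no interval reaches the dashed lines at 1.5-fold.

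The summed TPM of the 38 genes was 1993 ± 12.3 in vehicle libraries and 1819 ± 3.27 in PDBAG1 libraries (SD, n = 3 per group), which is given with no test. SLIRP alone made up 30.5% of the vehicle sum. Without SLIRP the sums were 1384 ± 34.3 and 1321 ± 30.9 TPM (SD, n = 3 per group). By role, the RNA stability and processing genes summed to 825 ± 17.7 TPM with vehicle and 687 ± 19.8 TPM with PDBAG1, and without SLIRP to 216 ± 8.66 and 188 ± 11.4 TPM. The translation factors summed to 656 ± 10.2 and 628 ± 2.90 TPM, the synthetases to 431 ± 16.5 and 420 ± 12.7 TPM, and the transcription genes to 81.4 ± 2.21 and 84.7 ± 5.29 TPM (SD, n = 3 per group for all). SLIRP has a short transcript, and its fall was smaller once trends with length and GC content were removed, as given with that gene.

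**Figure D2:**
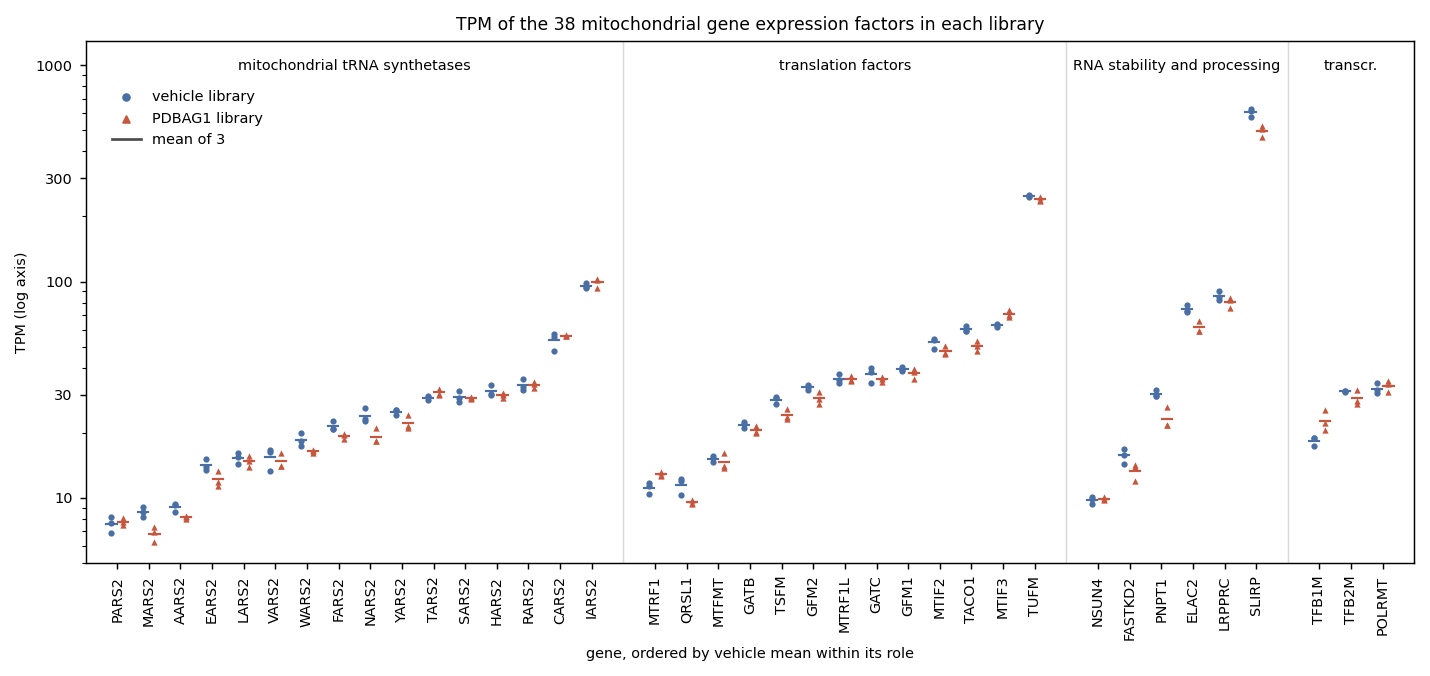
TPM of each of the 38 genes in the 3 vehicle and 3 PDBAG1 libraries on a log axis, grouped by role, each point a library and each short line a mean of 3. Levels span from 7.56 TPM (PARS2) to 609 TPM (SLIRP) in the vehicle mean, and the differences between treatments are small beside this range.

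Among the 16 mitochondrial tRNA synthetases 2 were lower and none was higher, with a median log2 fold change of -0.06. In the main fit that is 12.5% lower and 0% higher, beside 15.9% and 21.7% of all genes tested. By limma at an unadjusted p under 0.05 no synthetase was higher either. NARS2, which charges asparagine (chromosome 11, 78435620 to 78575194, minus strand, GRCh38, GENCODE v44, 14 exons), was at 25.9, 23.1 and 22.6 TPM with vehicle and at 18.3, 18.2 and 21.0 TPM with PDBAG1. All 3 PDBAG1 libraries lay below the vehicle libraries, with PDBAG1 replicate 3 the nearest to them. It fell from 23.9 ± 1.75 to 19.2 ± 1.57 TPM (SD, n = 3 per group), or -0.30 ± 0.07 on the log2 scale (SE, limma adjusted p = 0.00568). MARS2 charges methionine on the single mitochondrial methionine tRNA, which serves both initiation and elongation. This gene of 1 exon (chromosome 2, 197705369 to 197708395, plus strand) was at 9.06, 8.62 and 8.14 TPM with vehicle and at 6.22, 6.92 and 7.30 TPM with PDBAG1. The groups again did not overlap, and it fell from 8.61 ± 0.460 to 6.81 ± 0.548 TPM (SD, n = 3 per group), or -0.30 ± 0.09 on the log2 scale (SE, limma adjusted p = 0.0138).

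The other 14 synthetases were not called. EARS2, which loads glutamate, was at 13.95, 13.5 and 15.1 TPM and at 11.3, 11.9 and 13.4 TPM (log2 fold change -0.20, limma adjusted p = 0.0562). Its groups did not overlap, nor did those of AARS2 (alanine, -0.14), FARS2 (phenylalanine, -0.15) and WARS2 (tryptophan, -0.17), all lower with PDBAG1. AARS2 shares 235 exon bases with a gene model on the opposite strand. YARS2 (tyrosine) had a log2 fold change of -0.17 with overlapping groups. Without PDBAG1 replicate 3 EARS2 passed the threshold (log2 fold change -0.27, limma adjusted p = 0.0207), and without PDBAG1 replicate 2 YARS2 did (log2 fold change -0.23, limma adjusted p = 0.0331). Under median-of-ratios scaling EARS2, AARS2, FARS2, WARS2 and YARS2 were all called lower (limma adjusted p 0.0110 to 0.0362). The same genes were called under quantile normalization (0.00579 to 0.0221). Under each scaling 21.8% of all genes were lower. With length and GC trends removed only AARS2 and EARS2 of these passed.

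The most abundant synthetase was IARS2 (isoleucine), at 98.7, 94.3 and 93.8 TPM with vehicle and 93.7, 102 and 103 TPM with PDBAG1. The least abundant by its vehicle mean was PARS2 (proline), at 7.66, 6.86 and 8.16 TPM and at 7.45, 7.75 and 8.03 TPM. In both genes the groups overlapped. TARS2 (threonine), by contrast, was at 29.2, 28.4 and 29.5 TPM with vehicle and at 30.0, 30.3 and 32.0 TPM with PDBAG1, without overlap (log2 fold change 0.08, limma adjusted p = 0.270). CARS2 (cysteine) was at 57.3, 47.8 and 55.4 TPM and at 55.8, 56.2 and 56.7 TPM, so that its positive log2 fold change of 0.07 rested on the low vehicle replicate 2, without which it was -0.0029. RARS2 (arginine) was at 32.5, 31.5 and 35.6 TPM and at 32.2, 34.1 and 33.5 TPM, and SARS2 (serine) at 29.0, 27.6 and 31.2 TPM and at 29.2, 28.7 and 28.9 TPM. For both the difference of the means was smaller than the spread of the vehicle group. The exons of SARS2 share 1492 bases with a gene model on the same strand, and reads there cannot be assigned to either with certainty. HARS2, LARS2 and VARS2 had log2 fold changes of -0.06, -0.04 and -0.06.

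The cytosol has its own enzyme for the same reaction in most cases. The 19 cytosolic synthetases held 4 lower (21.1%) and 2 higher genes (10.5%), beside 15.9% and 21.7% of all genes tested. Their median log2 fold change was 0.01, and -0.036 under median-of-ratios scaling. CARS1 (cysteine) rose from 106 ± 3.14 to 124 ± 4.82 TPM (SD, n = 3 per group), by 0.22 on the log2 scale. FARSB, the beta subunit of phenylalanyl-tRNA synthetase, fell from 128 ± 1.54 to 98.0 ± 3.46 TPM (SD, n = 3 per group), or -0.38 on the log2 scale (limma adjusted p = 1.57e-05). FARSA, its alpha subunit, RARS1 and HARS1 fell by 0.17, 0.17 and 0.15 on the log2 scale. No cytosolic enzyme reached 1.5-fold.

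The mitochondrial enzymes had the lower TPM in each of 17 pairs formed by amino acid, with a cytosolic to mitochondrial ratio from 1.73 for isoleucine to 17.9 for proline (median 7.02). TPM is per transcript length, so these levels can be compared between genes. FARS2 is paired with both FARSA and FARSB, and EPRS1 with both EARS2 and PARS2, so the 17 pairs are not all separate. The log2 fold changes had the same sign in 7 of the 17 pairs and were more negative for the mitochondrial enzyme in 10. For methionine they were -0.30 (MARS2) and -0.06 (MARS1), and for asparagine -0.30 (NARS2) and -0.02 (NARS1). The difference within a pair was not tested. The ratio of summed mitochondrial to summed cytosolic synthetases was 0.152 ± 0.00231 in vehicle libraries and 0.151 ± 0.00257 in PDBAG1 libraries (SD, n = 3 per group, exact two-sided permutation p = 0.7). Abundant genes weigh most in such sums. IARS2 and CARS2, both with positive log2 fold changes, held 95.6 and 53.5 of the 431 TPM of the mitochondrial sum in the vehicle mean. GARS1 and KARS1, each of which makes the enzyme of both compartments from 1 gene, were called in opposite directions. GARS1 (glycine) rose from 316 ± 7.95 to 344 ± 13.1 TPM (SD, n = 3 per group), or 0.12 on the log2 scale (limma adjusted p = 0.0301), and KARS1 (lysine) fell from 222 ± 3.62 to 190 ± 3.96 TPM (SD, n = 3 per group), or -0.22 on the log2 scale (limma adjusted p = 0.000438). Among the 3 scaffold proteins of the cytosolic synthetase complex, AIMP2 and EEF1E1 fell by 0.24 and 0.27 on the log2 scale, and AIMP1 had a value of -0.12 and was not called.

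**Figure D3:**
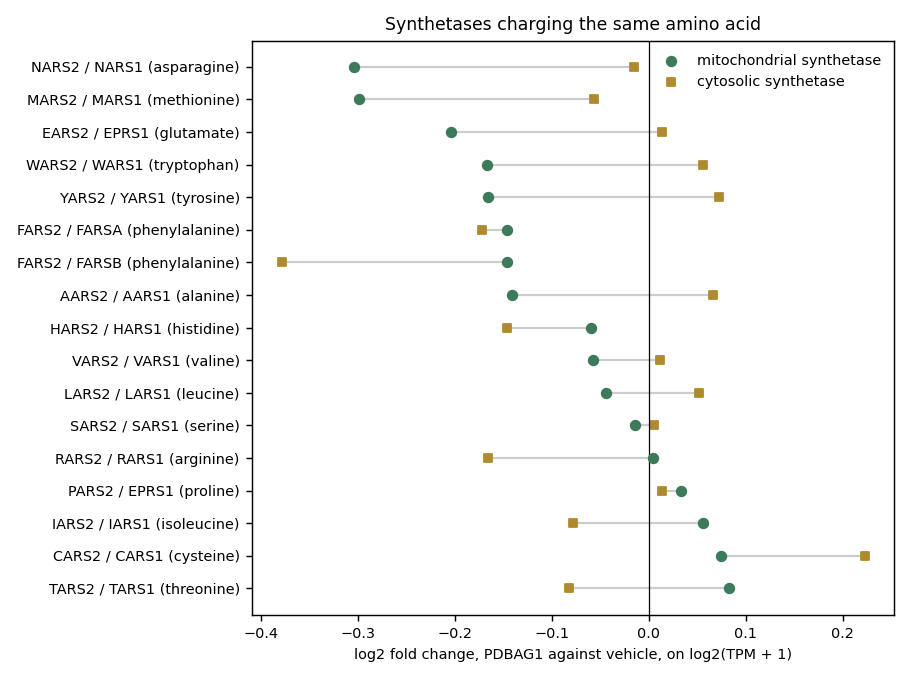
Log2 fold change on log2(TPM + 1), PDBAG1 against vehicle, of the mitochondrial (circle) and cytosolic (square) synthetase for each amino acid, joined by a line, with pairs in order of the mitochondrial value. In 10 of the 17 pairs the mitochondrial value is the more negative, as for NARS2 and MARS2 at the top. FARS2 and EPRS1 each appear in more than a single pair.

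The 13 translation factors included 3 lower (23.1%) and 1 higher gene (7.69%), beside 15.9% and 21.7% of all genes tested. Their median log2 fold change was -0.08. TACO1, a translational activator of the mitochondrially encoded cytochrome c oxidase subunit I, was at 62.6, 59.2 and 58.8 TPM with vehicle and 50.4, 53.2 and 47.9 TPM with PDBAG1. The groups were well apart, and TACO1 (chromosome 17, 63600882 to 63608365, plus strand, 5 exons) fell from 60.2 ± 2.08 to 50.5 ± 2.68 TPM (SD, n = 3 per group), or -0.25 ± 0.05 on the log2 scale (SE, limma adjusted p = 0.00249). Its exons share 959 bases with a gene model annotated on the same strand, and reads there cannot be assigned to either with certainty.

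Among the elongation factors TSFM fell, and TUFM, GFM1 and GFM2 were not called. TUFM, the most abundant gene of the group, brings charged tRNAs to the ribosome and was at 246, 248 and 250.4 TPM with vehicle and 245, 236 and 238 TPM with PDBAG1 (log2 fold change -0.05, limma adjusted p = 0.304). TSFM, which recharges TUFM with GTP, was at 27.0, 29.2 and 28.9 TPM and at 25.8, 23.1 and 23.6 TPM. Neither gene's groups overlapped, by a narrow margin in TUFM and a wider one in TSFM relative to level. TSFM (chromosome 12, 57782761 to 57808071, plus strand, 6 exons) fell from 28.4 ± 1.17 to 24.2 ± 1.44 TPM (SD, n = 3 per group), or -0.22 ± 0.06 on the log2 scale (SE, limma adjusted p = 0.0130). The TUFM to TSFM ratio was 8.75 ± 0.308 in vehicle libraries and 9.93 ± 0.374 in PDBAG1 libraries (SD, n = 3 per group, exact two-sided permutation p = 0.1, the smallest possible). The TSFM call was lost without vehicle replicate 2 (log2 fold change -0.20), vehicle replicate 3 (-0.21) or PDBAG1 replicate 2 (-0.19) and when trends with transcript length and GC content were removed (-0.13). TSFM shares 208 exon bases with AVIL on the opposite strand, which stayed under 1 TPM, and 259 with a gene model on its own strand. GFM1, the translocase, and GFM2, which helps to recycle the ribosome, had log2 fold changes of -0.06 and -0.16. For GFM2 the groups did not overlap, and without PDBAG1 replicate 3 it passed the threshold (log2 fold change -0.20, limma adjusted p = 0.0218).

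Of the initiation factors, 1 of 2 was called. MTIF3, which helps to dissociate the ribosomal subunits and position the start codon, was at 63.6, 62.9 and 61.8 TPM with vehicle and at 69.7, 74.0 and 68.6 TPM with PDBAG1. All PDBAG1 libraries lay above the vehicle libraries, and MTIF3 (chromosome 13, 27435643 to 27450591, minus strand, 5 exons) rose from 62.8 ± 0.898 to 70.8 ± 2.87 TPM (SD, n = 3 per group), or 0.17 ± 0.05 on the log2 scale (SE, limma adjusted p = 0.0127). With length and GC trends removed the rise was 0.32. The call was lost at 0.16 without vehicle replicate 3, at 0.14 without PDBAG1 replicate 2 and at 0.13 under median-of-ratios scaling. MTIF3 shares 181 exon bases with GTF3A on the opposite strand, which fell by 0.13 on the log2 scale. MTIF2, which delivers the initiator tRNA, had a log2 fold change of -0.13 and was not called (limma adjusted p = 0.0958). It passed only when vehicle replicate 2 was left out among the libraries left out singly (-0.18, limma adjusted p = 0.0429). Whether the 2 initiation factors differed in response was not tested.

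Of the release factors, MTRF1 had a low level, at 11.3, 10.4 and 11.7 TPM with vehicle and 12.6, 12.7 and 13.2 TPM with PDBAG1. Its groups did not overlap, and the log2 fold change of 0.19 narrowly missed the threshold (limma adjusted p = 0.0547). With length and GC trends removed MTRF1 passed it at 0.28. MTRF1L, which reads the common stop codons, was at 37.4, 34.1 and 35.1 TPM and at 34.8, 35.1 and 36.8 TPM, with a log2 fold change of 0.0029.

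Mitochondria make glutaminyl-tRNA by loading glutamate and then amidating it with a complex of QRSL1, GATB and GATC. QRSL1, the catalytic subunit, was at 12.2, 10.3 and 11.9 TPM with vehicle and 9.46, 9.34 and 9.81 TPM with PDBAG1. The groups did not overlap, and QRSL1 (chromosome 6, 106629578 to 106668417, plus strand, 11 exons) fell from 11.4 ± 1.03 to 9.54 ± 0.244 TPM (SD, n = 3 per group), or -0.24 ± 0.08 on the log2 scale (SE, limma adjusted p = 0.0328). The fall of QRSL1 held in 7 of 13 alternatives. It was lost without vehicle replicate 1 (-0.20), vehicle replicate 3 (-0.21), PDBAG1 replicate 1 (-0.23) or PDBAG1 replicate 2 (-0.22), without the filter on low TPM and with the replicate number as a block, where the limma adjusted p was 0.0696. GENCODE names 3 pseudogenes of QRSL1. GATB and GATC had log2 fold changes of -0.08 each and were not called. Within a library QRSL1 to GATC was 0.306 ± 0.00571 in vehicle libraries and 0.270 ± 0.00621 in PDBAG1 libraries (SD, n = 3 per group, exact two-sided permutation p = 0.1), and QRSL1 to GATB was 0.526 ± 0.0617 and 0.465 ± 0.0280 (SD, n = 3 per group, exact permutation p = 0.3). GATC shares 491 exon bases with SRSF9 on the opposite strand and 377 with a gene model on its own strand. MTFMT, which formylates the initiator methionine, was at 15.6, 15.3 and 14.6 TPM and at 13.7, 13.99 and 16.1 TPM, with PDBAG1 replicate 3 above every vehicle library.

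In the RNA stability and processing group 3 of 6 genes were lower (50%) and none was higher, with a median log2 fold change of -0.25. Of all genes tested, 15.9% were lower and 21.7% higher. None of the 6 was higher at an unadjusted limma p under 0.05. PNPT1 encodes polynucleotide phosphorylase, which degrades mitochondrial RNA. It had the largest fall of the 38 genes, from 31.7, 29.5 and 29.5 TPM with vehicle to 21.7, 21.7 and 26.2 TPM with PDBAG1. PDBAG1 replicate 3 was the nearest to the vehicle libraries but still below them. PNPT1 (chromosome 2, 55634061 to 55693863, minus strand, 28 exons) fell from 30.2 ± 1.26 to 23.2 ± 2.59 TPM (SD, n = 3 per group), or -0.37 ± 0.07 on the log2 scale (SE, limma adjusted p = 0.00147), and was -0.33 to -0.46 with single libraries left out. GENCODE names 2 pseudogenes of PNPT1, with which reads may be shared.

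SLIRP and LRPPRC form the complex that protects mitochondrial mRNAs from decay. SLIRP was the most abundant of the 38 genes, at 579, 629 and 617 TPM with vehicle and 524, 508 and 464 TPM with PDBAG1. Its groups did not overlap. SLIRP (chromosome 14, 77708071 to 77761104, plus strand, 4 exons) fell from 609 ± 26.1 to 499 ± 30.9 TPM (SD, n = 3 per group), or -0.29 ± 0.05 on the log2 scale (SE, limma adjusted p = 0.000337). Its canonical transcript is only 376 bases long, against a median of 2766.5 for the 38 genes, and when trends with transcript length and GC content were removed its log2 fold change was -0.10 (limma adjusted p = 0.0258). GENCODE names 2 pseudogenes of SLIRP. LRPPRC was at 90.3, 84.9 and 82.4 TPM and at 75.2, 82.2 and 84.0 TPM, so that the groups overlapped (log2 fold change -0.09, limma adjusted p = 0.191). The LRPPRC to SLIRP ratio was 0.141 ± 0.0125 in vehicle libraries and 0.162 ± 0.0188 in PDBAG1 libraries (SD, n = 3 per group, exact two-sided permutation p = 0.2).

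ELAC2 cuts the trailing end from precursor tRNAs, which frees tRNAs and mRNAs from the long mitochondrial transcripts. It was at 77.8, 72.4 and 73.1 TPM with vehicle and 58.8, 59.2 and 66.0 TPM with PDBAG1, without overlap. ELAC2 (chromosome 17, 12991612 to 13018065, minus strand, 24 exons) fell from 74.4 ± 2.93 to 61.4 ± 4.07 TPM (SD, n = 3 per group), or -0.28 ± 0.06 on the log2 scale (SE, limma adjusted p = 0.00151), and the call held in all 13 alternatives. It shares 32 exon bases with ARHGAP44 on the opposite strand, which stayed under 1 TPM. FASTKD2, which supports mitochondrial rRNA and ribosome assembly, was at 16.9, 14.4 and 15.8 TPM and at 11.99, 14.2 and 13.8 TPM. Its groups did not overlap, and its limma adjusted p of 0.05002 lay just above the threshold (log2 fold change -0.22). FASTKD2 passed in 7 of 13 alternatives, among them without vehicle replicate 2 (-0.28) and without PDBAG1 replicate 3 (-0.25). NSUN4, an rRNA methyltransferase of the ribosome assembly pathway, was at 9.37, 9.89 and 10.1 TPM and at 9.72, 9.87 and 10.0 TPM, with a log2 fold change of 0.01.

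The 3 genes grouped under transcription included 1 higher gene (33.3%, beside 21.7% of all genes tested) and none lower. TFB1M is related to transcription factors but is known to act as a methyltransferase of the small-subunit rRNA. It was at 18.9, 18.9 and 17.4 TPM with vehicle and 20.6, 22.2 and 25.4 TPM with PDBAG1. All PDBAG1 libraries lay above the vehicle libraries, with replicate 3 the highest. TFB1M (chromosome 6, 155256134 to 155314493, minus strand, 7 exons) rose from 18.4 ± 0.878 to 22.7 ± 2.44 TPM (SD, n = 3 per group), or 0.29 ± 0.08 on the log2 scale (SE, limma adjusted p = 0.0103). Without vehicle replicate 3 its call was lost at 0.25 (limma adjusted p = 0.0533), and MTIF3 was not called either, which left no gene called higher. TFB1M shares 1240 exon bases with TIAM2 on the opposite strand. TIAM2 had 1.46 ± 0.251 and 1.78 ± 0.206 TPM (SD, n = 3 per group), and whether reads were counted by strand is not given in the sources used here. POLRMT, the mitochondrial RNA polymerase, was at 33.9, 31.4 and 30.4 TPM and at 34.6, 30.8 and 33.5 TPM (log2 fold change 0.05, limma adjusted p = 0.590). TFB2M, which opens the promoter with the polymerase, was at 30.7, 31.2 and 31.2 TPM and at 28.04, 27.2 and 31.7 TPM (log2 fold change -0.10, limma adjusted p = 0.240). For POLRMT and TFB2M the groups overlapped.

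The pathway holds further factors outside the 38 genes. Of 63 other factors of mitochondrial gene expression, all tested, 26 were lower (41.3%) and none was higher in limma, also at an unadjusted p under 0.05, with a median log2 fold change of -0.14 and 52 negative values. In 34 of the 63 (54.0%) every PDBAG1 library lay below every vehicle library, and in 1 every one lay above. No list here was tested as a set, and the shares are to be read beside the background of 15.9% lower and 20.2% without overlap given above. The 63 factors were chosen with earlier results of these data known, so their share is a description and not independent evidence.

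Of 13 genes of mtDNA transcription and replication 6 were lower. TFAM, which packages mtDNA and starts its transcription, was at 103, 96.8 and 103 TPM with vehicle and 75.0, 72.8 and 83.9 TPM with PDBAG1. It fell from 101 ± 3.79 to 77.2 ± 5.91 TPM (SD, n = 3 per group), or -0.39 on the log2 scale (limma adjusted p = 0.000125), without overlap. MTERF4 and MTERF3, members of the termination factor family, fell by 0.40 and 0.39 on the log2 scale. Thus TFAM fell while POLRMT, with which it works at the promoter, had a value of 0.05 and was not called. The difference between these genes was not tested.

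Of 14 RNA processing and decay genes 7 were lower. They were led by FASTKD3, a relative of FASTKD2, from 17.2 ± 1.07 to 12.4 ± 0.687 TPM (SD, n = 3 per group), or -0.44 on the log2 scale (limma adjusted p = 0.000371). TRNT1, which adds the terminal CCA to tRNAs, and the polymerase MTPAP, which adds poly(A) tails, fell by 0.30 and 0.19. SUPV3L1, the helicase that works with PNPT1, fell from 40.1 ± 0.549 to 35.4 ± 0.306 TPM (SD, n = 3 per group), or -0.17 on the log2 scale (limma adjusted p = 0.0156). SUPV3L1 was named for its role beside PNPT1 after its value was seen. Of 21 tRNA and rRNA modification genes 9 were lower, led by the pseudouridine synthase PUS1 (-0.42) and the rRNA methyltransferases MRM2 (-0.41) and MRM1 (-0.33). Of 15 genes of ribosome assembly and further translation factors 4 were lower, with MALSU1 (-0.34), C12orf65 (-0.30) and the recycling factor MRRF (-0.23) the largest falls without overlap.

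**Figure D4:**
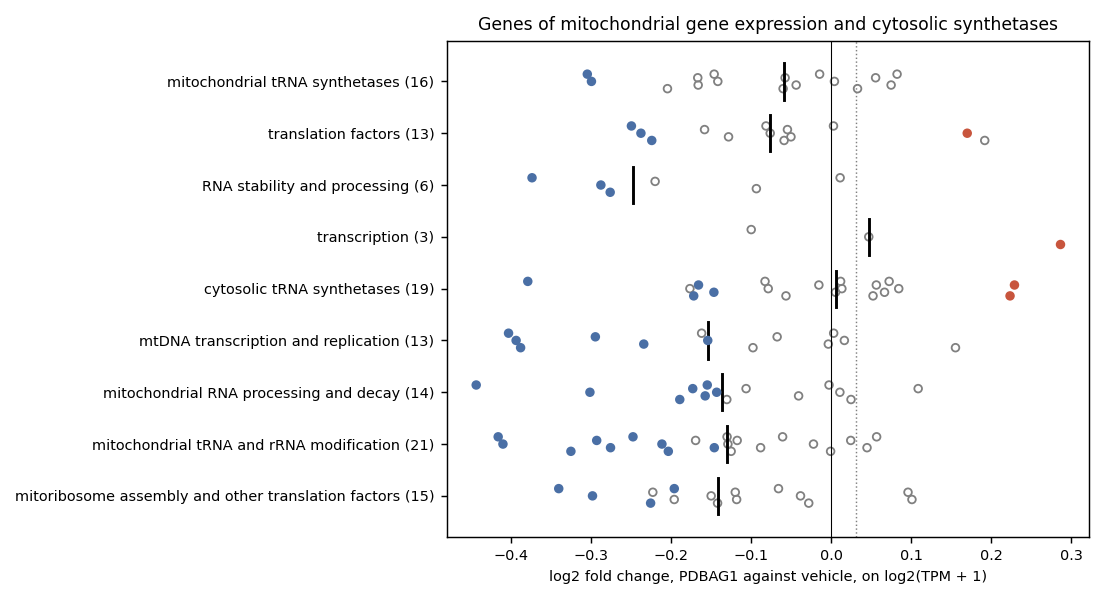
Log2 fold change on log2(TPM + 1) of each gene (points) by list, PDBAG1 against vehicle, blue where called lower, red where called higher and open where not called, with each list's median as a bar and the median of all genes tested (0.03) as a dotted line. The medians are -0.06 for the 16 mitochondrial synthetases, 0.01 for the 19 cytosolic ones and -0.25 for the 6 RNA stability and processing genes.

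The libraries of a group did not sit equally. PDBAG1 replicate 3 had the highest of the 3 PDBAG1 values in 27 of the 38 genes, a larger share than the 54.6% of all genes tested. Vehicle replicate 1 had the highest vehicle value in 22 of the 38, beside 60.6% of all genes. The median deviation of the 38 genes from the vehicle mean was 0.04, -0.04 and 0.01 (log2) in the vehicle libraries and -0.13, -0.09 and -0.03 in the PDBAG1 libraries. Without PDBAG1 replicate 3 there were 11 genes lower and 2 higher, beside 16.6% of all genes lower and 18.3% higher. The falls of MARS2, NARS2, TACO1, SLIRP, ELAC2 and PNPT1 passed the threshold in all 13 alternatives, which included leaving out each library.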

How the data were processed

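RNA from 6 libraries of MDA-MB-231 cells was analysed, grouped by the treatment label into 3 vehicle and 3 PDBAG1 samples. The authors deposited 1 TPM value per gene and library, rounded to 2 decimals. The submitters' processing notes name HISAT2 2.0.4, Bowtie2 2.2.5, RSEM 1.2.12 and GRCh38, whereas the methods name FPKM, and no counts were used. The annotation release and the strand setting are not given in the sources used here. Genes that reached a TPM of 1 in at least 3 libraries were tested on log2(TPM + 1) in R 4.3.3 with limma 3.58.1 (lmFit, eBayes with trend), with Benjamini-Hochberg adjustment over 12582 genes. Ratios between genes were compared by exact two-sided permutation tests. On data simulated for this comparison (12582 genes), 100 of 100 genes changed by 0.5 (log2) and 55 of 100 changed by 0.2 were recovered, and 10 unchanged genes were called. No other genes were changed in the simulation, far fewer than the 4736 called in the data. Its recovery is therefore not that of the data.

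The genes and lists were chosen with earlier results of these data known. Values per library are given for called genes, for the most and least abundant gene of each role (by vehicle mean), for genes whose direction changed under an alternative and for a few picked after their values were seen (EARS2, TARS2, LRPPRC, FASTKD2). From the comparator lists up to 3 called genes without overlap with the largest change are named, except for 1 that is not reported here. Positions were taken from GENCODE v44 (GRCh38). Deviations of libraries with the same number had correlations of -0.21, 0.01 and -0.08, none of them clearly positive, so the main test had no replicate block. Genes encoded in mtDNA were not analysed here. Alternatives were no filter, a TPM minimum of 1 for every library, a pseudocount of 0.1, a further scaling by median of ratios or quantiles, the replicate block, a correction for trends with transcript length and GC, and leaving out each library (13 in all for each gene). Those for the ratios and for the 63 other factors were added after seeing the data.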

Additional observations from a re-analysis of the deposited data

How the results depend on the processing

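Under median-of-ratios scaling 17 genes were lower and 1 was higher, under quantile normalization 16 were lower, and at a fold limit of 1.5 none was lower and none higher by limma (nor at an unadjusted p under 0.05), with 420 of all genes called against 4736. Median-of-ratios scaling added AARS2, EARS2, FARS2, WARS2, YARS2, GFM2, MTIF2, LRPPRC and FASTKD2 to the genes called lower in the main fit. Quantile normalization added the same genes except LRPPRC. All genes called were 5196 under median-of-ratios scaling and 5146 under quantile normalization. These scalings moved the median over all genes from 0.03 to -0.0073 and -0.02. With single libraries left out, the counts were 6 to 11 lower and 0 to 2 higher, and 3532 to 4649 over all genes. The replicate number as a block gave 7 lower (QRSL1 was lost), 2 higher and 3951 over all genes and changed no other call among the 38 genes. The numbers mark no shared origin in the labels.

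Medians moved by more than the replicate spread to -0.12 for the synthetases (quantile normalization), to -0.12 for translation factors (both scalings), to -0.17 for RNA stability and processing (length and GC trends removed), to -0.036 for cytosolic synthetases (median-of-ratios) and, for the 63 other factors, to -0.18 (median-of-ratios), -0.11 (length and GC trends removed) and -0.11 (without vehicle replicate 1, range -0.15 to -0.11 over single libraries left out). Quantile normalization moved the log2 differences of the ratios to 0.24 (TUFM to TSFM), -0.23 (QRSL1 to GATC) and -0.063 (mitochondrial to cytosolic synthetases). The causes were not tested.

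Signs reversed only for genes near 0, none of them called. Median-of-ratios scaling gave -0.0043 (PARS2), -0.037 (RARS2), -0.038 (MTRF1L) and -0.027 (NSUN4), quantile normalization -0.069 (PARS2), -0.035 (RARS2), -0.031 (MTRF1L) and -0.072 (NSUN4), and the fit without length and GC trends 0.0026 (MTFMT), -0.092 (POLRMT) and 0.011 (TFB2M). With single libraries left out, the ranges were -0.0029 to 0.13 (CARS2), -0.027 to 0.083 (PARS2), -0.031 to 0.053 (RARS2), -0.054 to 0.031 (SARS2), -0.026 to 0.039 (MTRF1L) and -0.018 to 0.033 (NSUN4). With depth unknown, precision rests on 3 libraries a group. A change of 0.2 on the log2 scale was recovered for 55 of 100 genes in data simulated for PDBAG1 against vehicle. Far fewer genes were changed there than were called in the data, so this share does not carry over to them.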
